A study of Arabidopsis with 36 samples.

Results

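Brassinosteroids are plant steroid hormones that drive cell elongation and division, and this account covers 10 Arabidopsis thaliana genes for their synthesis, inactivation and perception. The genes were picked by their locus identifiers for their known roles, with earlier results of these data known. All 10 were found among the 24532 genes of the expression table. The synthesis enzymes were DWF1 (AT3G19820), DET2 (AT2G38050), DWF4 (AT3G50660), CPD (AT5G05690), ROT3 (AT4G36380), BR6OX1 (AT5G38970) and BR6OX2 (AT3G30180). The inactivating enzyme was BAS1 (AT2G26710), the receptor BRI1 (AT4G39400) and the transcription factor BZR1 (AT1G75080).

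The hormones are made from plant sterols by reductases and a chain of cytochrome P450 enzymes, and they bind the receptor kinase BRI1 at the cell surface. Signalling from BRI1 switches off the kinase BIN2, which lets BZR1 and its relatives act in the nucleus. BZR1 is known to repress synthesis genes such as CPD and DWF4, so the pathway holds a feedback loop, and its growth output is well known in warm-grown hypocotyls and in elongating roots.

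Transcriptomes were measured by RNA-seq in roots and shoots collected separately from seedlings of 3 genotypes. These were hy5-215, a mutant of the light-response transcription factor HY5, chl1-5, a loss-of-function mutant of the nitrate transporter and sensor NRT1.1, and the wild type Col-0. All seedlings were germinated for 4 days at 21 °C and then kept for 5 more days at 28 °C or at 21 °C, with 3 replicates in each of the 12 groups. Per the labels, each root replicate was a pool of many roots. Values were RPKM (reads scaled by the depth of the library and the length of the gene), with the gene's whole span, introns included, as its length, so levels were compared between genes only on that per-length scale. Depth was 51.8 to 89.3 M reads a library over the 36 libraries.

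The targeted genes were read first as a check of the labels. HY5 averaged 6.78 RPKM at 28 °C and 7.69 RPKM at 21 °C in hy5-215 roots, against 42.5 and 25.2 RPKM in Col-0 roots at those temperatures. In the shoots labelled hy5-215 it averaged 5.17 RPKM at 28 °C and 5.68 RPKM at 21 °C, against 8.04 and 4.81 RPKM in Col-0 shoots, so the HY5 level did not check the shoot labels. NRT1.1 had 0 to 4 reads a library in chl1-5 roots at 28 °C and 0 to 1 reads at 21 °C. In the shoot libraries labelled chl1-5 it had 5351 to 6485 reads at 28 °C and 3715 to 4311 reads at 21 °C, or 18.9 and 13.4 RPKM on average, against 7.30 and 17.7 RPKM in Col-0 shoots. The shoot libraries labelled chl1-5 thus went against their label, and every direction below that uses the shoots labelled chl1-5 carries that limit. The organs matched their labels, as the summed level of 5 root markers was 188 to 333 RPKM in roots, against at most 14.9 RPKM in shoots, and that of 5 shoot markers at most 419.9 RPKM in roots, against 22425 to 34177 RPKM in shoots.

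DWF1, which reduces a sterol precursor to campesterol, was the most abundant of the 10 per length, with group means of 116 to 255 RPKM. BR6OX1, 1 of the pair of enzymes for the last oxidations, was the lowest, at 0.376 to 2.72 RPKM and as few as 72 reads in a library. The means of BR6OX1 spanned 7.23-fold and those of CPD, an early P450 of the chain, 6.39-fold, the widest of the 10. CPD had 61.2 RPKM in shoots labelled chl1-5 at 28 °C and 9.57 RPKM in hy5-215 roots at 21 °C. When the 12 group means were put in order, the libraries of neighbouring groups overlapped in only 3 of 11 steps for CPD and 4 for DWF1. BRI1 and ROT3 overlapped in 5 of the 11 steps, DWF4 and BAS1 in 6, and DET2 and BR6OX1 in 7. BR6OX2, at 4.71 to 7.94 RPKM, and BZR1, at 9.34 to 11.8 RPKM, overlapped in 10 of the 11, so their groups formed a nearly continuous series.

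**Figure D1:**
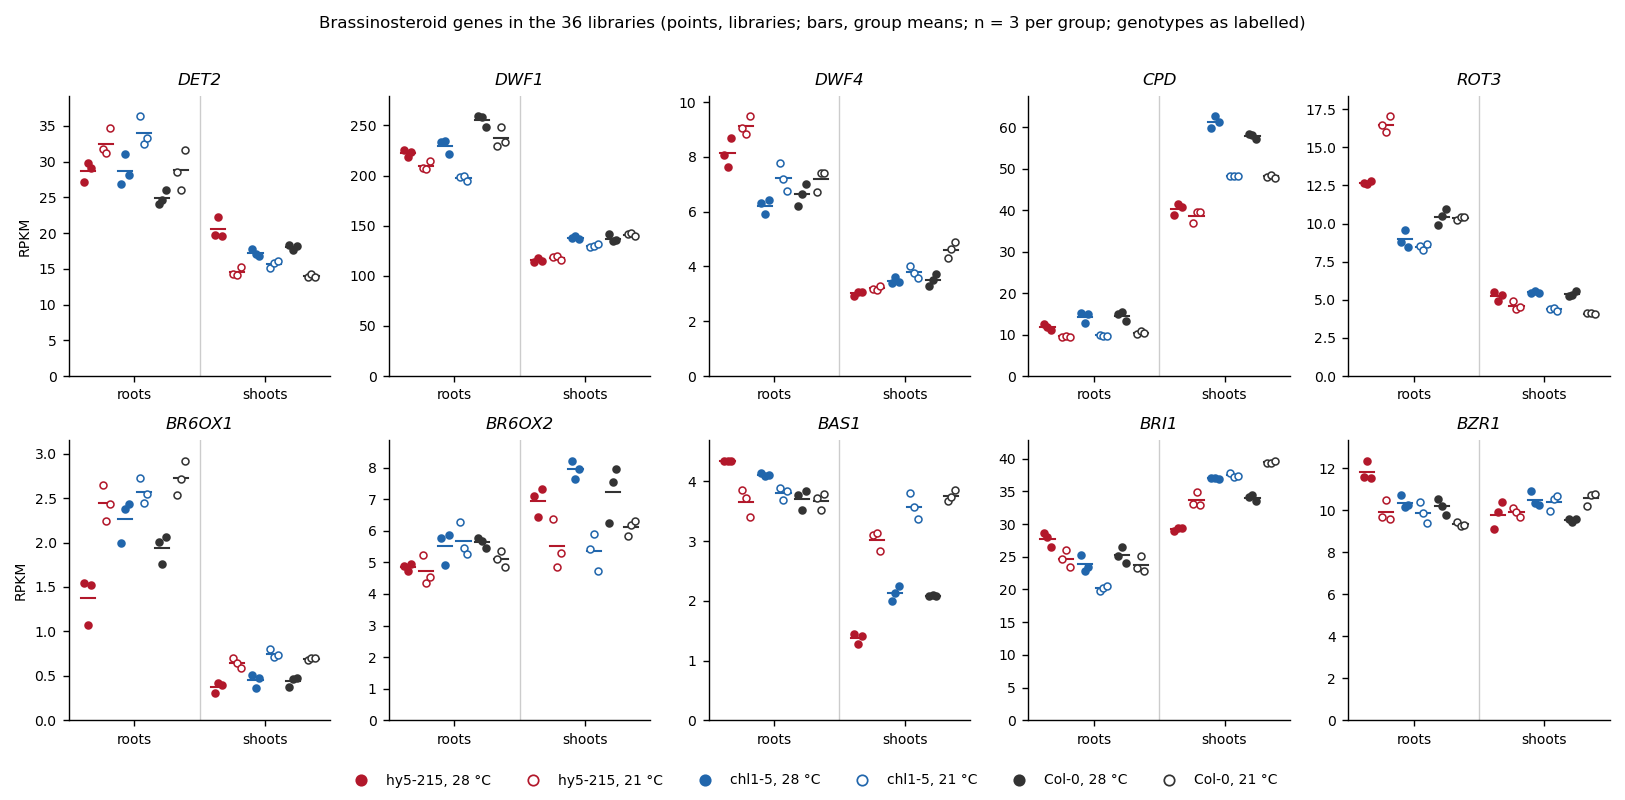
RPKM of each of the 10 genes in every library, 1 panel a gene, with roots left of shoots and, within an organ, hy5-215, chl1-5 and Col-0; filled points are 28 °C, open points 21 °C, and the lines mark group means of 3 libraries. All CPD points for shoots lie far above those for roots, while DWF1, DET2, DWF4, ROT3 and BR6OX1 lie higher in roots.

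The organs differed for 9 of the 10 genes. In Col-0 at 21 °C, 5 of the 10 were higher in roots than in shoots and 4 were lower, where 67.8% of the 18173 genes tested were called higher and 25.1% lower (limma on log2(RPKM + 1), Benjamini-Hochberg adjusted p under 0.05). Roots and shoots differed in scale as well, since the median gene was 0.53 log2 units higher in roots, and rescaling libraries by their median ratio moved that by -0.54 and the higher share of calls to 49.7%, against 73.0%. Values after rescaling are therefore given beside the differences between organs at 21 °C, and elsewhere where rescaling changed the call of a member.

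CPD had 10.2, 10.9 and 10.3 RPKM in Col-0 roots at 21 °C, against 48.1, 48.5 and 47.8 RPKM in Col-0 shoots. The log2 fold change was -2.09 (SE 0.048, adjusted p = 1.4e-26), and -2.69 after rescaling, the largest organ difference of the 10 in size. BRI1 had 23.4, 25.1 and 22.8 RPKM in roots, against 39.3, 39.3 and 39.7 RPKM in shoots, with log2 fold changes of -0.71 (SE 0.039, adjusted p = 9.5e-17) and -1.32 after rescaling. BZR1 and BR6OX2 were lower in roots by smaller amounts, at -0.16 (adjusted p = 6.4e-04) and -0.22 (adjusted p = 0.012), and after rescaling at -0.73 and -0.76.

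ROT3, a side-chain hydroxylase, had 10.3, 10.4 and 10.4 RPKM in Col-0 roots, against 4.10, 4.11 and 4.07 RPKM in Col-0 shoots, a log2 fold change of 1.16 (SE 0.040, adjusted p = 5.4e-22) that was 0.62 after rescaling. BR6OX1 (1.14, rescaled 0.78), DET2 (0.98, rescaled 0.38) and DWF1 (0.74, rescaled 0.12) were higher in roots under both scalings. BR6OX1 averaged 2.72 RPKM in Col-0 roots and 0.693 RPKM in Col-0 shoots, so its fold on the log2(RPKM + 1) scale understates the difference in RPKM. DWF4, the hydroxylase held to limit the flow into the pathway, was higher in roots at 0.54 (adjusted p = 5.3e-11) as deposited, but after rescaling the difference was 0.01 (adjusted p = 0.88). BAS1 went the other way, with -0.02 (adjusted p = 0.59) as deposited and -0.52 (adjusted p = 1.8e-13) after rescaling. Whether these genes counted as different between organs thus rested on the scale chosen.

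**Figure D2:**
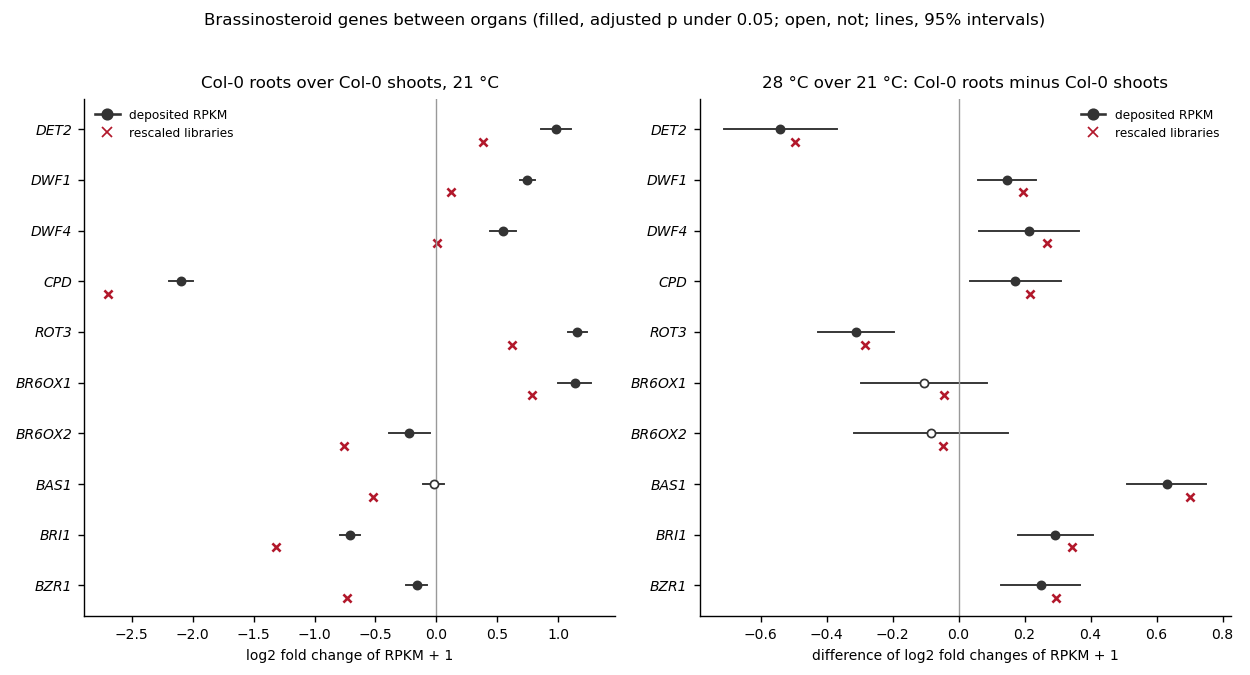
Left, log2 fold change of Col-0 roots over Col-0 shoots at 21 °C; right, the temperature response (28 °C over 21 °C) of Col-0 roots minus that of Col-0 shoots, for each gene. Points are limma estimates on log2(RPKM + 1) with 95% intervals, filled where called, and crosses are the estimates after rescaling. CPD stands lowest on the left at -2.09, and DET2 (-0.54) and BAS1 (0.63) lie at the ends on the right.

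In roots, 28 °C raised CPD and lowered DET2 in all 3 genotypes. The other genes passed the test in some genotypes only or in none. In hy5-215 roots, 4 members rose and 4 fell, where 36.5% of the 17742 genes tested were called higher and 24.5% lower. In chl1-5 roots, 3 rose and 2 fell, with 38.3% of genes higher and 29.1% lower, and in Col-0 roots 3 rose and 2 fell, with 37.0% higher and 29.2% lower. The median log2 fold change over the 10 was 0.06 in hy5-215, 0.07 in chl1-5 and 0.05 in Col-0 roots, where the medians over all genes were 0.05, 0.04 and 0.03. These counts and medians were near those of all genes.

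CPD had 12.6, 11.7 and 11.1 RPKM in hy5-215 roots at 28 °C, against 9.53, 9.69 and 9.504 RPKM at 21 °C. In chl1-5 roots it had 15.1, 12.8 and 15.04 RPKM at 28 °C, against 9.89, 9.78 and 9.75 RPKM at 21 °C. Col-0 roots had 14.9, 15.4 and 13.4 RPKM at 28 °C, against 10.2, 10.9 and 10.3 RPKM at 21 °C. In each genotype all libraries at 28 °C lay above all at 21 °C, with log2 fold changes of 0.27 (SE 0.060, adjusted p = 1.0e-03) in hy5-215, 0.50 (SE 0.060, adjusted p = 2.1e-06) in chl1-5 and 0.43 (SE 0.060, adjusted p = 1.1e-05) in Col-0. The summed level of 5 shoot markers (RBCS1A, LHCB1.3, CA1, GLK1 and YAB1) moved with temperature in the chl1-5 and Col-0 roots. That sum was 217 to 287 RPKM in chl1-5 roots at 28 °C and 34.9 to 42.9 at 21 °C, and 300.3 to 419.9 RPKM in Col-0 roots at 28 °C and 48.3 to 71.9 at 21 °C, or 1.21% (chl1-5) and 1.49% (Col-0) of the shoot level at 28 °C. In hy5-215 roots it was only 3.20 to 19.8 RPKM at 28 °C and 4.46 to 9.71 RPKM at 21 °C, and CPD was higher at 28 °C there too. Of these markers YAB1, GLK1 and CA1 stayed at or below 0.632 RPKM in every root library, and the part of the marker change in the CPD result was not tested. In such bulk tissue, fewer cells of a type and less RNA per cell cannot be told apart.

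DET2, the steroid reductase early in the chain, had 27.2, 29.8 and 29.05 RPKM in hy5-215 roots at 28 °C, against 31.8, 31.1 and 34.6 RPKM at 21 °C. In chl1-5 roots the values were 26.9, 31.1 and 28.16 RPKM at 28 °C, against 36.3, 32.4 and 33.3 RPKM at 21 °C. In Col-0 roots they were 24.1, 24.7 and 26.03 RPKM at 28 °C, against 28.6, 26.1 and 31.7 RPKM at 21 °C. The 28 °C libraries lay below those at 21 °C in all 3 genotypes, by small steps, with log2 fold changes of -0.18 (SE 0.069, adjusted p = 0.037), -0.24 (SE 0.069, adjusted p = 0.0065) and -0.20 (SE 0.069, adjusted p = 0.020) in hy5-215, chl1-5 and Col-0. The hy5-215 call was lost without hy5-215 21 °C replicates 1 or 3 or hy5-215 28 °C replicates 1 or 3 (adjusted p = 0.052 to 0.15), and the Col-0 call without Col-0 21 °C replicate 3 or Col-0 28 °C replicate 1 (adjusted p = 0.070 to 0.12).

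BR6OX1 had 1.54, 1.07 and 1.52 RPKM in hy5-215 roots at 28 °C, against 2.65, 2.24 and 2.43 RPKM at 21 °C, a log2 fold change of -0.54 (SE 0.079, adjusted p = 2.9e-05). Col-0 roots had 2.00, 1.76 and 2.07 RPKM at 28 °C, against 2.54, 2.71 and 2.92 RPKM at 21 °C, a change of -0.34 (SE 0.079, adjusted p = 0.0014). In chl1-5 roots the values were 1.99, 2.37 and 2.44 RPKM at 28 °C, against 2.72, 2.45 and 2.55 RPKM at 21 °C, and the change of -0.13 (SE 0.079, adjusted p = 0.16) did not pass the test. The fall of BR6OX1 at 28 °C thus passed the test in hy5-215 and Col-0 roots only. Its chl1-5 libraries at 28 °C (at most 2.437 RPKM) also lay below those at 21 °C (at least 2.447 RPKM), by a narrow gap. The chl1-5 response of BR6OX1 was not called different from that of Col-0. As its level was low, these folds on the log2(RPKM + 1) scale understate the change in RPKM. BR6OX2, its close relative that also makes brassinolide, had 4.86 ± 0.114 RPKM at 28 °C and 4.71 ± 0.474 RPKM at 21 °C in hy5-215 roots (SD, n = 3 each). It averaged 5.51 ± 0.523 RPKM at 28 °C and 5.66 ± 0.542 RPKM at 21 °C in chl1-5 roots, and 5.64 ± 0.158 RPKM at 28 °C and 5.10 ± 0.2597 RPKM at 21 °C in Col-0 roots. No BR6OX2 change in roots passed the test, and the log2 fold change in Col-0 was 0.12 (95% interval -0.02 to 0.27).

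ROT3 changed with temperature only in hy5-215 roots by this test, with 12.7, 12.6 and 12.8 RPKM at 28 °C, against 16.4, 15.97 and 17.02 RPKM at 21 °C. In chl1-5 roots it had 8.80, 9.61 and 8.49 RPKM at 28 °C, against 8.51, 8.25 and 8.64 RPKM at 21 °C. Col-0 roots had 9.90, 10.50 and 10.98 RPKM at 28 °C, against 10.3, 10.4 and 10.4 RPKM at 21 °C. The libraries of the 2 temperatures stood far apart in hy5-215, with a log2 fold change of -0.35 (SE 0.043, adjusted p = 4.5e-06), against 0.07 (adjusted p = 0.15) in chl1-5 and 0.01 (adjusted p = 0.84) in Col-0. DWF4 had 8.08, 7.61 and 8.71 RPKM in hy5-215 roots at 28 °C, against 9.04, 8.85 and 9.48 RPKM at 21 °C, and 6.32, 5.90 and 6.43 RPKM in chl1-5 roots at 28 °C, against 7.76, 7.20 and 6.76 RPKM at 21 °C. It was lower at 28 °C in both, with log2 fold changes of -0.15 (adjusted p = 0.035) and -0.19 (adjusted p = 0.0086), whereas the change of -0.10 (adjusted p = 0.14) in Col-0 roots did not pass the test. The DWF4 calls were lost in hy5-215 without hy5-215 21 °C replicates 1 or 3 or hy5-215 28 °C replicates 1 or 2 (adjusted p = 0.061 to 0.15), and in chl1-5 without chl1-5 21 °C replicate 1 (adjusted p = 0.052).

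DWF1 averaged 223 ± 3.87 RPKM at 28 °C and 209.5 ± 4.57 RPKM at 21 °C in hy5-215 roots, 229.7 ± 7.31 RPKM at 28 °C and 198 ± 2.95 RPKM at 21 °C in chl1-5 roots, and 255 ± 5.84 RPKM at 28 °C and 237 ± 9.61 RPKM at 21 °C in Col-0 roots (SD, n = 3 each). The log2 fold changes were 0.09 (adjusted p = 0.055) in hy5-215, 0.22 (adjusted p = 9.2e-05) in chl1-5 and 0.11 (adjusted p = 0.021) in Col-0, so the last 2 passed the test. In hy5-215 roots all libraries at 28 °C (218 to 226 RPKM) also lay above those at 21 °C (207 to 215 RPKM). The DWF1 response in hy5-215 roots was not called different from that in Col-0 roots. The Col-0 call was lost without Col-0 21 °C replicates 1 or 3 or Col-0 28 °C replicates 1 or 2 (adjusted p = 0.055 to 0.096), after rescaling, at 0.07 (adjusted p = 0.14), and with only the groups compared in the fit (adjusted p = 0.095).

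BAS1, which inactivates brassinolide by hydroxylation, had 4.34, 4.34 and 4.35 RPKM in hy5-215 roots at 28 °C, against 3.86, 3.72 and 3.41 RPKM at 21 °C. It rose there by 0.20 (SE 0.042, adjusted p = 7.6e-04) on the log2 scale. In chl1-5 roots its mean was 4.11 ± 0.0214 RPKM at 28 °C and 3.80 ± 0.104 RPKM at 21 °C, and in Col-0 roots 3.71 ± 0.168 RPKM at 28 °C and 3.68 ± 0.143 RPKM at 21 °C (SD, n = 3 each). Neither change passed the test, at 0.09 (adjusted p = 0.072) and 0.01 (adjusted p = 0.86).

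The receptor BRI1 had 28.6, 28.0 and 26.5 RPKM in hy5-215 roots at 28 °C, against 24.7, 25.99 and 23.5 RPKM at 21 °C. In chl1-5 roots it had 25.3, 22.8 and 23.4 RPKM at 28 °C, against 19.7, 20.3 and 20.47 RPKM at 21 °C. Both were increases past the threshold, of 0.16 (adjusted p = 0.013) and 0.23 (adjusted p = 8.1e-04) on the log2 scale, whereas Col-0 roots, with 25.2, 26.5 and 24.1 RPKM at 28 °C and 23.4, 25.1 and 22.8 RPKM at 21 °C, changed by 0.09 (adjusted p = 0.15) with overlapping libraries. BZR1 had 11.6, 12.4 and 11.5 RPKM in hy5-215 roots at 28 °C, against 9.71, 10.48 and 9.598 RPKM at 21 °C. Its log2 fold change was 0.23 (adjusted p = 2.8e-04) in hy5-215, 0.06 (adjusted p = 0.22) in chl1-5 and 0.11 (adjusted p = 0.033) in Col-0 roots. The Col-0 call of BZR1 was lost without Col-0 21 °C replicates 1, 2 or 3 or Col-0 28 °C replicates 1 or 2 (adjusted p = 0.052 to 0.13). It was also lost after rescaling, at 0.08 (adjusted p = 0.13), and with only the groups compared (adjusted p = 0.058). The hy5-215 call of BRI1 was lost without hy5-215 21 °C replicate 3 or hy5-215 28 °C replicate 1 (adjusted p = 0.057 to 0.067). That call was also lost after rescaling, at 0.11 (adjusted p = 0.065).

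**Figure D3:**
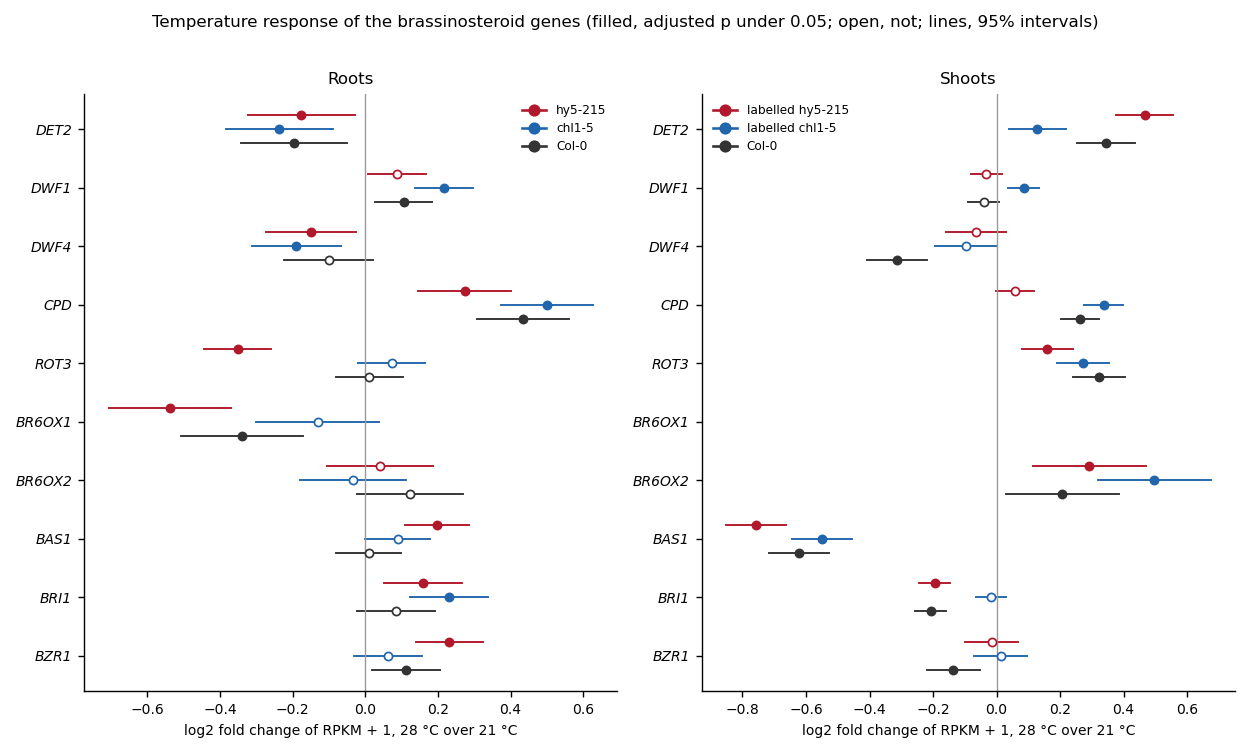
Log2 fold change of 28 °C over 21 °C for each gene in roots and in shoots of hy5-215, chl1-5 (as labelled) and Col-0, with limma's 95% intervals on log2(RPKM + 1); filled points passed an adjusted p of 0.05. BAS1 in shoots lies farthest to the left (-0.76 in shoots labelled hy5-215, -0.55 in shoots labelled chl1-5, -0.62 in Col-0), and CPD in roots lies to the right in every genotype. BR6OX1 has no point in shoots because its level there was below the filter.

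In shoots, BAS1 fell at 28 °C under all 3 labels, while DET2, ROT3 and BR6OX2 rose. In shoots labelled hy5-215, 3 of the 9 members tested rose and 2 fell, where 46.8% of the 16817 genes tested were called higher and 30.4% lower. In shoots labelled chl1-5, 5 rose and 1 fell, with 49.9% of genes higher and 28.4% lower, and in Col-0 shoots 4 rose and 4 fell, with 46.2% higher and 30.7% lower. The higher share of all calls was 60.6%, 63.7% and 60.1% under these 3 labels, and 49.5%, 49.5% and 50.1% after rescaling. The median over the members was -0.02 in hy5-215, 0.09 in chl1-5 and -0.04 in Col-0 shoots, against 0.08, 0.10 and 0.08 over all genes. These counts lay near the background for so few genes. A fit of only the groups compared, which leaves out the libraries labelled chl1-5, also called 5 members under the hy5-215 label and 8 in Col-0. Only in the shoots labelled chl1-5 did rescaling shift the median gene by more than 0.1, by -0.11.

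BAS1 had 1.44, 1.28 and 1.42 RPKM in shoots labelled hy5-215 at 28 °C, against 3.10, 3.14 and 2.83 RPKM at 21 °C. In shoots labelled chl1-5 it had 2.00, 2.13 and 2.25 RPKM at 28 °C, against 3.80, 3.57 and 3.363 RPKM at 21 °C. Col-0 shoots had 2.08, 2.09 and 2.08 RPKM at 28 °C, against 3.67, 3.73 and 3.85 RPKM at 21 °C. The 2 temperatures were widely apart under each label, with log2 fold changes of -0.76 (SE 0.044, adjusted p = 4.0e-11), -0.55 (SE 0.044, adjusted p = 3.7e-09) and -0.62 (SE 0.044, adjusted p = 7.0e-10) for hy5-215, chl1-5 and Col-0.

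DET2 had 19.7, 22.3 and 19.5 RPKM in shoots labelled hy5-215 at 28 °C, against 14.3, 14.1 and 15.3 RPKM at 21 °C. In shoots labelled chl1-5 it had 17.8, 17.1 and 16.9 RPKM at 28 °C, against 15.1, 15.8 and 16.1 RPKM at 21 °C. Col-0 shoots had 18.4, 17.7 and 18.2 RPKM at 28 °C, against 13.9, 14.3 and 13.9 RPKM at 21 °C. Its log2 fold changes were 0.47 (SE 0.043, adjusted p = 1.8e-08), 0.13 (SE 0.043, adjusted p = 0.011) and 0.34 (SE 0.043, adjusted p = 1.0e-06), all upwards and opposite in sign to those in roots. The smallest of them, under the chl1-5 label, was lost after rescaling, at 0.01 (adjusted p = 0.86), and without chl1-5 21 °C replicate 1 or chl1-5 28 °C replicate 1 (adjusted p = 0.053 to 0.058).

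CPD had 38.8, 41.5 and 40.7 RPKM in shoots labelled hy5-215 at 28 °C, against 36.9, 39.6 and 39.6 RPKM at 21 °C. In shoots labelled chl1-5 it had 59.8, 62.6 and 61.2 RPKM at 28 °C, against 48.2, 48.3 and 48.2 RPKM at 21 °C. Col-0 shoots had 58.4, 58.1 and 57.2 RPKM at 28 °C, against 48.1, 48.5 and 47.8 RPKM at 21 °C. CPD rose under the chl1-5 label (0.34, SE 0.029, adjusted p = 7.6e-09) and in Col-0 (0.26, SE 0.029, adjusted p = 2.2e-07), whereas the hy5-215 libraries overlapped between temperatures (0.06, adjusted p = 0.076). ROT3 averaged 5.26 ± 0.289 RPKM at 28 °C and 4.60 ± 0.2602 RPKM at 21 °C under the hy5-215 label, 5.49 ± 0.0657 and 4.37 ± 0.104 RPKM under the chl1-5 label, and 5.37 ± 0.159 and 4.10 ± 0.0209 RPKM in Col-0 shoots (SD, n = 3 each). It rose under all 3 labels, by 0.16 (adjusted p = 0.0011), 0.27 (adjusted p = 4.7e-06) and 0.32 (adjusted p = 6.6e-07) on the log2 scale.

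BR6OX2 had 7.09, 6.42 and 7.31 RPKM in shoots labelled hy5-215 at 28 °C, against 6.36, 4.86 and 5.31 RPKM at 21 °C. In shoots labelled chl1-5 it had 8.22, 7.65 and 7.95 RPKM at 28 °C, against 5.43, 5.89 and 4.74 RPKM at 21 °C. Col-0 shoots had 6.24, 7.54 and 7.94 RPKM at 28 °C, against 5.85, 6.19 and 6.29 RPKM at 21 °C. BR6OX2 was thus higher at 28 °C, with log2 fold changes of 0.29 (adjusted p = 0.0046), 0.50 (adjusted p = 3.8e-05) and 0.21 (adjusted p = 0.034), but the Col-0 libraries overlapped and that call was lost after rescaling, at 0.13 (adjusted p = 0.092), without the filter (adjusted p = 0.052) and without Col-0 21 °C replicates 1 or 2 or Col-0 28 °C replicates 2 or 3 (adjusted p = 0.057 to 0.16). BR6OX1 went the other way at a level too low for the filter of 1 RPKM. It had 0.310, 0.418 and 0.401 RPKM in shoots labelled hy5-215 at 28 °C, against 0.703, 0.642 and 0.586 RPKM at 21 °C, and 0.505, 0.362 and 0.479 RPKM in shoots labelled chl1-5 at 28 °C, against 0.802, 0.712 and 0.738 RPKM at 21 °C. In Col-0 shoots the values were 0.3796, 0.465 and 0.474 RPKM at 28 °C, against 0.674, 0.703 and 0.701 RPKM at 21 °C. Without the filter, its log2 fold changes were -0.26 (SE 0.041, adjusted p = 4.5e-05), -0.27 (SE 0.041, adjusted p = 2.3e-05) and -0.23 (SE 0.041, adjusted p = 1.2e-04) over 23454 genes, so the 2 relatives moved in opposite directions in shoots. At levels this low, these folds of BR6OX1 on the log2(RPKM + 1) scale understate the change in RPKM.

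DWF4 had 2.92, 3.08 and 3.06 RPKM in shoots labelled hy5-215 at 28 °C, against 3.18, 3.15 and 3.29 RPKM at 21 °C. In shoots labelled chl1-5 it had 3.40, 3.61 and 3.45 RPKM at 28 °C, against 4.04, 3.77 and 3.59 RPKM at 21 °C. Col-0 shoots had 3.30, 3.52 and 3.72 RPKM at 28 °C, against 4.31, 4.66 and 4.88 RPKM at 21 °C. It fell in Col-0 (-0.31, SE 0.045, adjusted p = 6.4e-06), and the changes of -0.07 (adjusted p = 0.20) under the hy5-215 label and -0.10 (adjusted p = 0.060) under the chl1-5 label did not pass the test. After rescaling both passed, at -0.14 (adjusted p = 0.0069) and -0.19 (adjusted p = 5.4e-04).

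DWF1 averaged 116 ± 2.31 RPKM at 28 °C and 118 ± 2.03 RPKM at 21 °C in shoots under the hy5-215 label, 138 ± 1.40 and 130.0 ± 1.74 RPKM under the chl1-5 label, and 137 ± 3.84 and 141 ± 1.27 RPKM in Col-0 (SD, n = 3 each). Its log2 fold changes were -0.03 (adjusted p = 0.20), 0.09 (adjusted p = 0.0027) and -0.04 (adjusted p = 0.12). After rescaling the 3 were -0.13 (adjusted p = 0.0033), -0.04 (adjusted p = 0.36) and -0.12 (adjusted p = 0.0050), so that its sign under the chl1-5 label depended on the scale.

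BRI1 had 28.9, 29.4 and 29.4 RPKM in shoots labelled hy5-215 at 28 °C, against 33.1, 34.9 and 32.9 RPKM at 21 °C. In shoots labelled chl1-5 it had 37.0, 37.1 and 36.9 RPKM at 28 °C, against 37.9, 37.3 and 37.3 RPKM at 21 °C. Col-0 shoots had 34.1, 34.5 and 33.5 RPKM at 28 °C, against 39.3, 39.3 and 39.7 RPKM at 21 °C. The receptor fell under the hy5-215 label (-0.20, SE 0.023, adjusted p = 4.5e-07) and in Col-0 (-0.21, SE 0.023, adjusted p = 2.2e-07) with no overlap of libraries, while under the chl1-5 label the change was -0.02 (adjusted p = 0.50), and -0.14 (adjusted p = 8.2e-04) after rescaling. BZR1 fell in Col-0 shoots, with 9.57, 9.44 and 9.58 RPKM at 28 °C, against 10.2, 10.7 and 10.8 RPKM at 21 °C (-0.14, adjusted p = 0.0051). Its changes of -0.02 (adjusted p = 0.73) under the hy5-215 label and 0.01 (adjusted p = 0.78) under the chl1-5 label did not pass, and after rescaling they were -0.11 (adjusted p = 0.029) and -0.10 (adjusted p = 0.036).

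The temperature response of Col-0 roots was set against that of Col-0 shoots in 1 fit over both organs. It differed for 8 of the 10 genes, being more positive in roots for 6 and more negative for 2, where 28.9% of the 18173 genes tested were more positive in roots and 32.4% more negative. BAS1 differed by 0.63 (SE 0.058, adjusted p = 2.7e-10) on the log2 scale, with a log2 fold change of 0.01 in roots and -0.62 in shoots. DET2 differed by -0.54 (SE 0.084, adjusted p = 2.7e-06), with a fall in roots and a rise in shoots, and ROT3 by -0.31 (SE 0.056, adjusted p = 2.5e-05). BRI1 (0.29), BZR1 (0.25), DWF4 (0.21), CPD (0.17) and DWF1 (0.15) were the other 5. The DWF4 difference was lost without the Col-0 root replicate 1 at 21 °C (adjusted p = 0.055). That of CPD was lost when any 1 of 6 libraries was left out (adjusted p = 0.053 to 0.10). These were root replicates 1 or 3 at 21 °C, root replicates 1 or 2 at 28 °C, shoot replicate 2 at 21 °C or shoot replicate 3 at 28 °C.

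Genotypes were then compared at each temperature, with the library values given above. In hy5-215 roots at 28 °C, 6 members were higher than in Col-0 and 4 lower, where 32.2% of genes were called higher and 22.8% lower. The members' shares lay above the background, and 8 of the 10 were called after rescaling. The members were chosen with earlier results of these data known, so this excess is no independent support, and it was not tested. At 21 °C, 2 were higher and 1 lower, where 24.7% of genes were called higher and 18.9% lower. ROT3 stood out in size at 21 °C, with 16.4, 15.97 and 17.02 RPKM in hy5-215 roots, against 10.3, 10.4 and 10.4 RPKM in Col-0 roots. Its log2 fold change was 0.26 (SE 0.043, adjusted p = 1.1e-04) at 28 °C and 0.62 (SE 0.043, adjusted p = 1.1e-08) at 21 °C. DWF4 was higher in hy5-215 roots as well, at 0.26 (adjusted p = 0.0014) at 28 °C and 0.31 (adjusted p = 4.8e-04) at 21 °C. DWF1 was lower, at -0.20 (adjusted p = 3.7e-04) at 28 °C and -0.18 (adjusted p = 0.0012) at 21 °C.

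The other 7 passed the test in roots at 28 °C but not at 21 °C. Among them only BAS1 passed the test of a difference between the temperatures, given below as an interaction. DET2 (0.19, adjusted p = 0.026), BAS1 (0.18, adjusted p = 0.0016), BZR1 (0.20, adjusted p = 0.0012) and BRI1 (0.13, adjusted p = 0.041) were higher in hy5-215, and CPD (-0.28, adjusted p = 9.4e-04), BR6OX1 (-0.31, adjusted p = 0.0035) and BR6OX2 (-0.18, adjusted p = 0.035) were lower. For 3 of these the call was fragile: it was lost for DET2 without Col-0 28 °C replicates 1 or 2 or hy5-215 28 °C replicates 2 or 3 (adjusted p = 0.063 to 0.089), for BR6OX2 without Col-0 28 °C replicates 1 or 2 or hy5-215 28 °C replicates 1, 2 or 3 (adjusted p = 0.058 to 0.093), and for BRI1 without Col-0 28 °C replicates 1 or 3, hy5-215 21 °C replicate 1 or hy5-215 28 °C replicates 1 or 2 (adjusted p = 0.050 to 0.16). After rescaling, DET2 was at 0.15 (adjusted p = 0.092) and BRI1 at 0.09 (adjusted p = 0.15), and BRI1 was also lost with only the groups compared (adjusted p = 0.066).

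In chl1-5 roots, ROT3 and DWF1 were lower than in Col-0 at both temperatures. At 28 °C no member was higher and 2 were lower, where 6.68% of genes were called higher and 2.75% lower (70.8% of the calls higher, and 49.7% after rescaling). At 21 °C, 1 was higher and 3 lower, with 16.6% of genes higher and 11.7% lower. ROT3 had 8.51, 8.25 and 8.64 RPKM in chl1-5 roots at 21 °C, against 10.3, 10.4 and 10.4 RPKM in Col-0 roots, with log2 fold changes of -0.20 (adjusted p = 0.010) at 28 °C and -0.26 (adjusted p = 5.0e-04) at 21 °C. The differences for DWF1 were -0.15 (adjusted p = 0.021) at 28 °C and -0.26 (adjusted p = 1.7e-04) at 21 °C. At 21 °C BRI1 was lower too, with 19.7, 20.3 and 20.47 RPKM in chl1-5, against 23.4, 25.1 and 22.8 RPKM in Col-0 (-0.23, adjusted p = 0.0042), and DET2 was higher (0.24, adjusted p = 0.019). The 28 °C calls were lost without chl1-5 28 °C replicate 3 (adjusted p = 0.055) for ROT3 and without Col-0 28 °C replicates 1 or 2 or chl1-5 28 °C replicate 3 (adjusted p = 0.061 to 0.090) for DWF1, and the DET2 call without Col-0 21 °C replicates 1 or 2 or chl1-5 21 °C replicate 1 (adjusted p = 0.052 to 0.10). With only the groups compared in the fit, the count at 28 °C was 0 (adjusted p = 0.18 for DWF1 and 0.14 for ROT3), and DET2 at 21 °C was lost (adjusted p = 0.051).

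In shoots labelled hy5-215, CPD, DWF1, DWF4, BAS1 and BRI1 were lower than in Col-0 at both temperatures. At 28 °C, 1 of the 9 tested was higher and 5 lower, where 25.8% of genes were called higher and 30.4% lower. At 21 °C, 1 was higher and 5 lower, where 25.7% of genes were called higher and 34.6% lower (42.6% of the calls higher, and 52.8% after rescaling). CPD had 38.8, 41.5 and 40.7 RPKM at 28 °C in shoots labelled hy5-215, against 58.4, 58.1 and 57.2 RPKM in Col-0 shoots. All of its hy5-215 values lay below all Col-0 values at both temperatures, with log2 fold changes of -0.51 (SE 0.029, adjusted p = 8.0e-11) at 28 °C and -0.31 (SE 0.029, adjusted p = 9.7e-08) at 21 °C. The differences at 28 °C and 21 °C were -0.38 and -0.24 for BAS1, -0.25 and -0.25 for DWF1, -0.21 and -0.22 for BRI1, and -0.17 and -0.42 for DWF4. DET2 was higher at 28 °C (0.17, adjusted p = 0.0025) and ROT3 at 21 °C (0.14, adjusted p = 0.0057). DWF4 was thus higher than in Col-0 in hy5-215 roots and lower in shoots under that label, a contrast between organs that was not itself tested.

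Shoots labelled chl1-5 differed from Col-0 shoots by small steps in the members. At 28 °C, 3 of the 9 tested were higher and none lower, where 23.8% of genes were called higher and 23.9% lower. At 21 °C, 1 was higher and 3 lower, with 20.6% of genes higher and 27.9% lower (42.5% of the calls higher, and 53.4% after rescaling). The higher ones at 28 °C were CPD (0.08, adjusted p = 0.034), BRI1 (0.12, adjusted p = 3.8e-04) and BZR1 (0.13, adjusted p = 0.014). At 21 °C, DET2 was higher (0.15, adjusted p = 0.0078) and DWF4 (-0.23, adjusted p = 5.6e-04), DWF1 (-0.12, adjusted p = 4.9e-04) and BRI1 (-0.07, adjusted p = 0.015) were lower. The CPD call was lost without Col-0 28 °C replicates 2 or 3 or chl1-5 28 °C replicates 2 or 3 (adjusted p = 0.062 to 0.14) and after rescaling, at 0.07 (adjusted p = 0.18), and that of BZR1 without chl1-5 28 °C replicate 1 (adjusted p = 0.072). At 21 °C the calls of DWF1 and BRI1 were lost after rescaling, at -0.09 (adjusted p = 0.062) and -0.04 (adjusted p = 0.31). ROT3, not called as deposited, was higher at 21 °C after rescaling, at 0.10 (adjusted p = 0.0098).

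**Figure D4:**
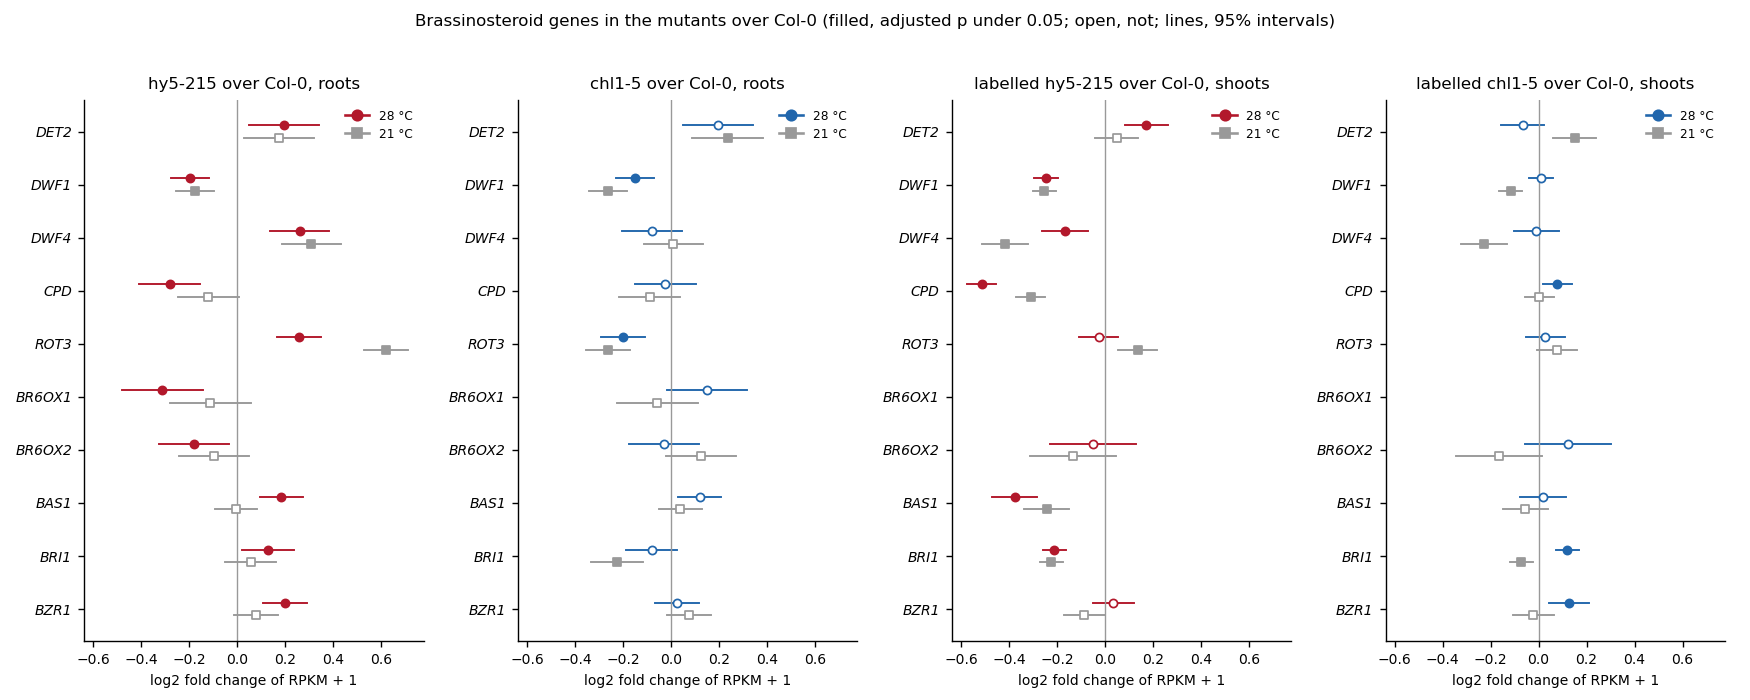
Log2 fold change of hy5-215 and of chl1-5 over Col-0 for each gene in roots and in shoots, as labelled, at 28 °C (circles) and at 21 °C (squares), with limma's 95% intervals on log2(RPKM + 1). ROT3 in hy5-215 roots at 21 °C (0.62) and CPD in shoots labelled hy5-215 at 28 °C (-0.51) lie farthest from 0.

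Whether the temperature response itself differed from that of Col-0 was tested as an interaction. In hy5-215 roots it differed for BAS1 (0.19, adjusted p = 0.034) and ROT3 (-0.36, adjusted p = 7.8e-04), that is 1 member more positive and 1 more negative, where 9.95% of genes were more positive and 10.4% more negative. The ROT3 response itself was -0.35 in hy5-215 roots and 0.01 in Col-0 roots. The BAS1 interaction was lost without Col-0 21 °C replicates 1 or 3, Col-0 28 °C replicate 2, hy5-215 21 °C replicates 2 or 3 or hy5-215 28 °C replicates 1, 2 or 3 (adjusted p = 0.054 to 0.088) and with only the groups compared (adjusted p = 0.069). In chl1-5 roots no member's response differed from Col-0 by limma on log2 values, with a lowest adjusted p of 0.29, 0 members at an unadjusted p under 0.05, and 0 by limma voom on recovered reads (1 unadjusted). Among all genes 0.975% were more positive and 1.38% more negative there.

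In shoots labelled hy5-215 the response was more positive for DWF4 and more negative for CPD and ROT3, where 27.4% of genes were more positive and 22.8% more negative. DWF4 differed by 0.25 (adjusted p = 0.0039), CPD by -0.20 (adjusted p = 5.1e-04) and ROT3 by -0.16 (adjusted p = 0.020), and the ROT3 difference was lost without Col-0 28 °C replicate 3, hy5-215 21 °C replicate 1 or hy5-215 28 °C replicate 2 (adjusted p = 0.053 to 0.059). BAS1, not called as deposited, was more negative after rescaling, at -0.14 (adjusted p = 0.047). In shoots labelled chl1-5, 5 responses were more positive and 1 more negative, where 30.5% of genes were more positive and 25.8% more negative. BRI1 (0.19, adjusted p = 8.9e-05), DWF4 (0.22, adjusted p = 0.0084), BZR1 (0.15, adjusted p = 0.033), DWF1 (0.13, adjusted p = 0.0034) and BR6OX2 (0.29, adjusted p = 0.049) were the more positive ones, and DET2 (-0.22, adjusted p = 0.0057) the more negative. The BR6OX2 difference was lost without Col-0 21 °C replicates 1, 2 or 3, Col-0 28 °C replicate 1, hy5-215 21 °C replicate 3, hy5-215 28 °C replicates 1 or 3, chl1-5 21 °C replicates 1 or 3 or chl1-5 28 °C replicates 1, 2 or 3 (adjusted p = 0.051 to 0.14), without the filter (adjusted p = 0.077) and with a replicate block (adjusted p = 0.067). That of BZR1 was lost without Col-0 21 °C replicates 2 or 3, Col-0 28 °C replicate 2, chl1-5 21 °C replicate 1 or chl1-5 28 °C replicate 1 (adjusted p = 0.061 to 0.093) and after rescaling, at 0.11 (adjusted p = 0.11), and that of DWF1 after rescaling, at 0.09 (adjusted p = 0.16). Both mutants were set against the same Col-0 libraries, so these differences are not independent of each other.

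The 10 genes were then placed beside 46 further genes of the pathway, in lists drawn up by role. In roots, 35 of these had a mean of at least 1 RPKM and were tested. At 28 °C, 11 were higher and 8 lower in hy5-215 roots, 10 and 9 in chl1-5 roots, and 10 and 12 in Col-0 roots. Over all genes tested, 36.5% were higher and 24.5% lower in hy5-215 roots. The shares were 38.3% and 29.1% in chl1-5 roots and 37.0% and 29.2% in Col-0 roots. The counts lay near these shares, and the counts per list below rest on few genes.

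Of 9 other genes for sterol and brassinosteroid synthesis, 1 rose and 5 fell in Col-0 roots, with a median log2 fold change of -0.13 against 0.03 over all genes. CYP90D1, a relative of ROT3, rose by 0.23 (adjusted p = 0.0078), and the sterol enzymes FK (-0.20, adjusted p = 7.8e-04), SMT2 (-0.19, adjusted p = 5.1e-04) and HYD1 (-0.15, adjusted p = 0.0013) fell. The same list had 0 higher and 3 lower in hy5-215 roots and 3 higher and 0 lower in chl1-5 roots. Among 6 other inactivating enzymes, 4 were tested and 2 fell in Col-0 roots. The acyltransferase BAT1 averaged 35.1 ± 0.686 RPKM at 28 °C and 55.3 ± 2.69 RPKM at 21 °C in Col-0 roots (SD, n = 3 each), which is a log2 fold change of -0.64 (adjusted p = 1.3e-07), beside -0.51 (adjusted p = 2.0e-06) in hy5-215 and -0.80 (adjusted p = 8.1e-09) in chl1-5 roots. The P450 CYP72C1 fell in Col-0 roots, at -0.34 (adjusted p = 1.1e-04).

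Of 12 genes for receptors and signal transfer, 10 were tested and 4 rose and 2 fell in Col-0 roots. BKI1, an inhibitor of BRI1, rose by 0.54 (adjusted p = 1.3e-05), the BRI1 substrate kinase BSK1 by 0.29 (adjusted p = 5.5e-07) and the phosphatase BSL1 by 0.13 (adjusted p = 0.034). The receptor BRL3 had log2 fold changes of 0.14 (adjusted p = 0.025) in hy5-215, -0.51 (adjusted p = 2.2e-07) in chl1-5 and -0.43 (adjusted p = 1.6e-06) in Col-0 roots, and the hy5-215 response differed from that of Col-0 by 0.56 (adjusted p = 5.9e-05). Of 10 transcription factors, 8 were tested, of which 4 rose and 2 fell in Col-0 roots. In the BZR1 family BEH4 rose (0.30, adjusted p = 8.6e-05) while BEH1 (-0.26, adjusted p = 0.0016) and BES1 (-0.21, adjusted p = 0.015) fell, and the basic helix-loop-helix factor BIM3 rose (0.29, adjusted p = 0.0016). Of 9 genes known to be induced by brassinosteroids only 4 were tested in roots, and in Col-0 the wall enzyme TCH4 rose (0.82, adjusted p = 0.050) and the auxin-response repressor IAA19 fell (-0.24, adjusted p = 0.0048). In hy5-215 roots the counts were 0 higher and 1 lower for inactivation, 7 higher and 2 lower for receptors and signal transfer, 3 higher and 1 lower for transcription factors and 1 higher and 1 lower for induced genes. In chl1-5 roots they were 1 higher and 2 lower, 4 higher and 2 lower, 2 higher and 3 lower and 0 higher and 2 lower in the same order of lists. TCH4 varied widely among root libraries, with 13.3 to 28.9 RPKM in hy5-215 at 28 °C and 7.15 to 9.58 at 21 °C, 2.63 to 5.66 in chl1-5 at 28 °C and 2.42 to 10.4 at 21 °C, and 3.96 to 6.58 in Col-0 at 28 °C and 2.22 to 3.00 at 21 °C.

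In shoots, 40 of the 46 were tested, and 28 °C raised 16 and lowered 15 under the hy5-215 label, 17 and 17 under the chl1-5 label, and 15 and 15 in Col-0. Over all genes tested, 46.8% were higher and 30.4% lower under the hy5-215 label. The shares were 49.9% and 28.4% under the chl1-5 label and 46.2% and 30.7% in Col-0. Counts per list in shoots rest on few genes too. Of the 9 synthesis genes 7 rose in Col-0 shoots and none fell, with a median of 0.16 against 0.08 over all genes, and 7 rose and 2 fell under the hy5-215 label and 6 rose and 1 fell under the chl1-5 label. The sterol methyltransferase SMT3 averaged 40.9 ± 0.935 RPKM at 28 °C and 17.9 ± 0.210 RPKM at 21 °C in Col-0 shoots (SD, n = 3 each), which is a log2 fold change of 1.15 (adjusted p = 2.9e-15), beside 1.46 and 1.25 under the hy5-215 and chl1-5 labels. SMT1 (0.60), DWF7 (0.53) and DWF5 (0.19, adjusted p = 3.6e-05) also rose in Col-0 shoots. DWF5 did not do so under the hy5-215 label (-0.11, adjusted p = 0.0043) or the chl1-5 label (-0.06, adjusted p = 0.12).

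Of 8 brassinosteroid-induced genes tested in shoots, 1 rose and 5 fell in Col-0, 8 fell under the hy5-215 label and 7 fell under the chl1-5 label, with medians of -0.89 (hy5-215), -0.60 (chl1-5) and -0.43 (Col-0). The expansin gene EXPA8 averaged 47.2 ± 0.769 RPKM at 28 °C and 77.6 ± 0.856 RPKM at 21 °C in Col-0 shoots (SD, n = 3 each), which is a log2 fold change of -0.71 (adjusted p = 7.4e-13), beside -1.31 under the hy5-215 label and -0.94 under the chl1-5 label. TCH4, IAA19 and BEE3 fell in Col-0 shoots too, at -0.81 (adjusted p = 5.9e-16), -0.77 (adjusted p = 1.5e-09) and -0.45 (adjusted p = 0.0011). Several of these genes are known to answer to auxin as well.

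Among the inactivating enzymes 5 were tested in shoots, and 4 fell and 1 rose in Col-0. BAT1 fell under every label, at -0.99 (adjusted p = 3.6e-11) for hy5-215, -1.17 (adjusted p = 4.0e-12) for chl1-5 and -0.65 (adjusted p = 1.3e-08) for Col-0, and BEN1 rose in Col-0 shoots (0.33, adjusted p = 2.2e-06). The glucosyltransferase UGT73C6 averaged 3.79 ± 0.2596 RPKM at 28 °C and 21.34 ± 0.839 RPKM at 21 °C, and UGT73C5 10.2 ± 0.186 and 27.6 ± 0.761 RPKM, in Col-0 shoots (SD, n = 3 each). Their log2 fold changes were -2.22 (adjusted p = 2.7e-17) and -1.35 (adjusted p = 2.1e-17), but the 2 genes are closely similar neighbours and how shared reads were counted is not given in the sources used here, so their values are uncertain. Of the receptors and signal genes 5 rose and 3 fell in Col-0 shoots, led by BRL3 (-0.39, adjusted p = 4.4e-06), the coreceptors BAK1 (0.30, adjusted p = 2.9e-08) and SERK1 (-0.30, adjusted p = 1.6e-04), and BRL1 (0.21, adjusted p = 4.9e-04). Of the transcription factors 1 rose and 3 fell, with BIM1 at 0.18 (adjusted p = 1.0e-04) and the BZR1 relatives BEH3, BES1 and BEH1 each at -0.21. Under the hy5-215 label these 3 lists had 0 higher and 3 lower (inactivation), 6 higher and 1 lower (receptors and signal transfer) and 3 higher and 1 lower (transcription factors), and under the chl1-5 label 1 higher and 4 lower, 7 higher and 2 lower and 3 higher and 3 lower.

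**Figure D5:**
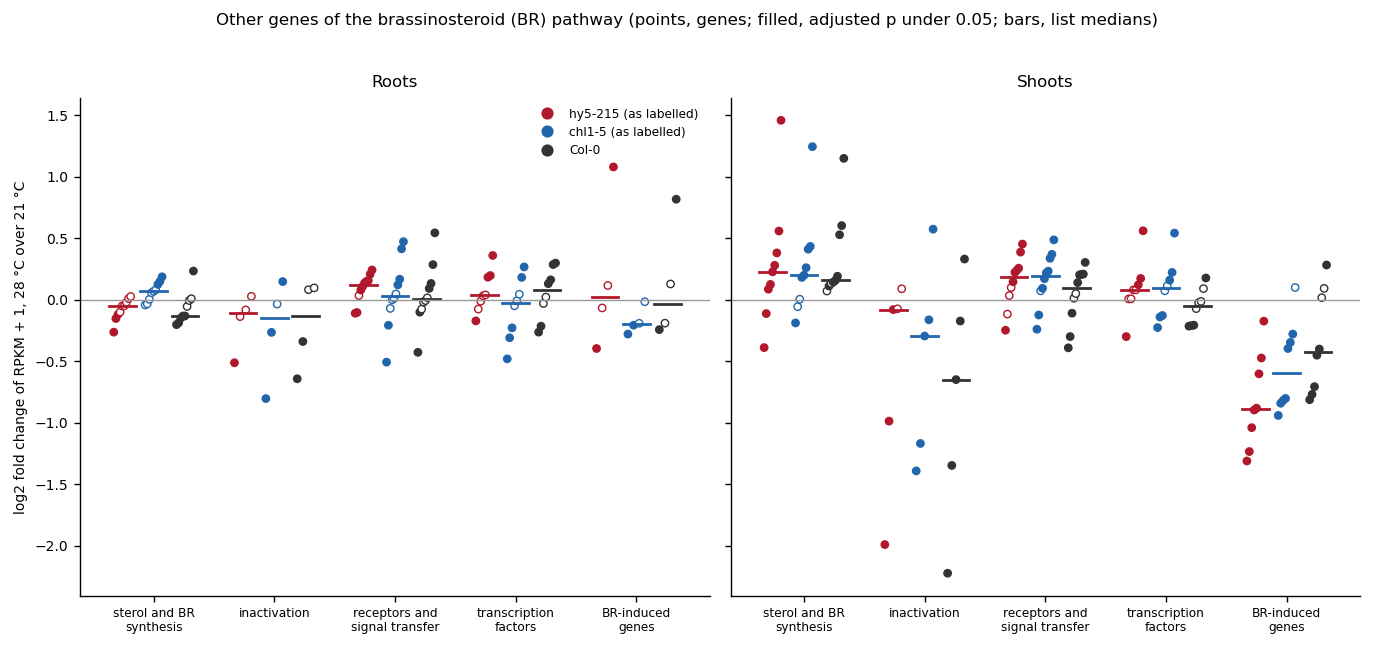
Log2 fold change of 28 °C over 21 °C for the pathway genes tested, grouped by list, in roots and in shoots of hy5-215, chl1-5 (as labelled) and Col-0; each point is 1 gene and filled points passed an adjusted p of 0.05. In shoots most synthesis genes lie above 0 and most brassinosteroid-induced genes below it.

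Across the 18 root libraries, log2(RPKM + 1) of DET2 ran against that of DWF1 (Pearson r = -0.86) and CPD (-0.79), BR6OX1 ran against BZR1 (-0.89), and DWF4 ran with ROT3 (0.81). Across the 18 shoot libraries DET2 ran against BAS1 (-0.93) and ROT3 against BR6OX1 (-0.85), while BR6OX1 ran with BAS1 (0.92), DWF1 with CPD (0.83) and DWF4 with BRI1 (0.82). These values describe the libraries, which share genotype and temperature groups and depth. Over the 12 group means, the genes most like DWF4 among 18172 were RECQSIM (AT5G27680, r = 0.987), AT2G19380 (0.986) and AT1G19480 (0.985), and those most like CPD were AT2G17033, AT3G09580 and AT5G64380, each at 0.997. The closest to BR6OX2 were NCS1 (AT5G03555, r = 0.957), AT3G44160 (0.944) and AT5G02860 (0.935). The 12 means fall into 2 organs, and any gene with a like organ difference scores high on this measure.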

How the data were processed

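RNA-seq was made from roots and shoots of 3 genotypes at 28 °C and 21 °C, with 3 independent replicates a group. The authors mapped reads with STAR 2.7.0a and list edgeR 3.36.0, per the submitters' processing notes, on TAIR10; the annotation release and the counting tool are not given in the sources used here. The deposited values are RPKM per gene, which the authors normalised by depth and by gene length, and 99.98% of the values above 0 came out as whole reads within a tolerance of 0.01. All 36 columns were matched to samples by name (0 were not). Gene names came from the RefSeq table of assembly TAIR10.1, so no coordinates or sequences are shown.

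Roots and shoots were fitted separately with limma 3.58.1 in R 4.3.3 on log2(RPKM + 1), with 1 mean per genotype and temperature. Genes below 1 RPKM on average in the organ were left out, which kept 17742 in roots and 16817 in shoots. The organ comparisons used 1 fit over both organs (18173 genes). P-values were two-sided and adjusted by Benjamini-Hochberg over all genes tested, with a threshold of 0.05. Intervals are 95% intervals of limma. Python 3.11.15 with pandas 2.3.3, numpy 2.4.6 and matplotlib 3.10.9 prepared the tables and figures. The fits were tested on simulated data. Alternatives were a pseudocount of 0.1, no filter, a filter of 5 RPKM, libraries rescaled by the median of ratios, only the groups compared, a replicate block, limma voom on the recovered reads, and leaving out each library.

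All 10 members were named. Of the other pathway genes, those that passed the test in Col-0 were named, at most the 4 with the largest absolute change per list, with the mutants' values for some of them. For DWF4, CPD and BR6OX2 the 3 genes with the highest Pearson r were named. The members and lists were chosen with earlier results of these data known. The study's methods call the replicates independent but do not say what was separate, so p-values measure the spread between these samples, which may be technical.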

Additional observations from a re-analysis of the deposited data

Results flagged for a closer look

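A test of the difference between responses singled out 19 results, each the log2 temperature response of 1 group minus that of another. In roots the response of hy5-215 minus that of Col-0 was -0.36 (adjusted p = 7.8e-04) for ROT3 and 0.19 (adjusted p = 0.034) for BAS1. In shoots labelled hy5-215 it was 0.25 (adjusted p = 0.0039) for DWF4, -0.20 (adjusted p = 5.1e-04) for CPD and -0.16 (adjusted p = 0.020) for ROT3.

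In shoots labelled chl1-5, whose libraries hold reads of the gene that the label says is lost, the response minus that of Col-0 was -0.22 (adjusted p = 0.0057) for DET2, 0.13 (adjusted p = 0.0034) for DWF1 and 0.22 (adjusted p = 0.0084) for DWF4. It was 0.29 (adjusted p = 0.049) for BR6OX2, 0.19 (adjusted p = 8.9e-05) for BRI1 and 0.15 (adjusted p = 0.033) for BZR1.

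The response of Col-0 roots minus that of Col-0 shoots was -0.54 (adjusted p = 2.7e-06) for DET2, 0.15 (adjusted p = 0.0042) for DWF1, 0.21 (adjusted p = 0.014) for DWF4 and 0.17 (adjusted p = 0.030) for CPD. It was -0.31 (adjusted p = 2.5e-05) for ROT3, 0.63 (adjusted p = 2.7e-10) for BAS1, 0.29 (adjusted p = 4.5e-05) for BRI1 and 0.25 (adjusted p = 6.2e-04) for BZR1.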

How the results depend on the processing

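Of 103 member differences called, 75 stayed past the threshold under every alternative and leave-out run, and 28 were lost in at least 1. Only DWF1 in shoots labelled chl1-5 reversed, at -0.038 after rescaling (adjusted p = 0.36), against 0.09 as deposited. For 28 °C against 21 °C the members called were 3 in Col-0 roots after rescaling and 3 with only the groups compared, against 5. The filter of 5 RPKM left BAS1, DWF4 and ROT3 out of the test in shoots, and BAS1 and BR6OX1 in roots. With it the counts were 5 in Col-0 shoots, against 8, and 3 in shoots labelled hy5-215, against 5. For those shoots against Col-0 at 21 °C the count was 3, against 6. That filter left 1 interaction in hy5-215 roots, against 2, and 1 in shoots labelled hy5-215, against 3. These lower counts came from members that were not tested. Shoots labelled hy5-215 had 8 calls after rescaling, against 5. With only the groups compared, chl1-5 against Col-0 in roots at 28 °C had 0 calls, against 2, and the hy5-215 root interaction had 1. Leaving out 1 library gave 2 to 5 calls in Col-0 roots, 5 to 9 in hy5-215 roots, 0 to 2 for chl1-5 roots at 28 °C, 1 to 2 for the hy5-215 root interaction and 2 to 5 for that in shoots, with 5 without the hy5-215 replicate 3 at 21 °C. The cause was not tested.

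Over all genes, the filter of 5 RPKM (10665 genes) gave 8626, 8584 and 8560 calls in hy5-215, chl1-5 and Col-0 shoots, against 12993, 13166 and 12936. As shares of the genes tested, these were 80.9%, 80.5% and 80.3%, against 77.3%, 78.3% and 76.9%. With only the groups compared, chl1-5 roots at 28 °C gave 146 calls, against 1673, and the chl1-5 root interaction 238, against 417. Same-numbered libraries correlated over 0.1 in 6 of 9 root pairs (-0.27 to 0.29) and 5 of 9 shoot pairs (-0.26 to 0.48). The signs were mixed, so these values do not settle whether the numbers pair the libraries. The replicate block kept 102 of the 103 calls and lost BR6OX2 in the chl1-5 shoot interaction (0.29, adjusted p = 0.067). Limma voom on the recovered reads called 11689 genes in Col-0 roots, against 11759. Depth limits BR6OX1 most, at as few as 72 reads a library.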
